A study of Mus musculus with 2 samples.

Results

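Tle3 peaks were examined at 9 loci of transcription factors that act in blood stem and progenitor cells: Gata2, Tal1, Lmo2, Erg, Meis1, Myb, Spi1, Cebpa and Nfe2. Members were chosen by position: a peak was counted when its midpoint lay in a fixed window around the gene, given in build mm9, and 14 of the 5136 peaks in the deposited list (0.273%) met this rule. The members lay at 7 of the 9 loci. The windows at Meis1 and Myb held 0 peaks. Because the windows were drawn with results of this list known, the counts, positions, scores and widths below describe the list and carry no test.

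The peaks were called from chromatin immunoprecipitation and sequencing of bone marrow cells that lacked lineage markers and carried cKit, the receptor for stem cell factor. The cells came from wild-type mice of the C57BL/6 strain, 8 to 10 weeks old, and no treatment is named. A library made with an antibody against Tle3 was compared with 1 control library, which is labelled both as normal IgG and as input, so its kind was not settled. The cell type is labelled hematopoietic progenitors, but the source names say T cells. The cell label was not checked against marker genes, since the list holds no expression values. There were no replicates, the numbers of reads are unknown, and the spread between animals cannot be given for any value.

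Tle3 is a corepressor of the Groucho family. It does not bind DNA itself and reaches chromatin through DNA-binding partners, among them HES, RUNX and TCF/LEF factors. The 9 genes belong to the network that keeps blood stem and progenitor cells undifferentiated or directs them to a lineage. Gata2, Tal1, Lmo2 and Erg act together with Runx1 at shared enhancers in stem and progenitor cells, Meis1 and Myb maintain self-renewal and proliferation, and Spi1, Cebpa and Nfe2 drive myeloid, granulocytic and megakaryocytic or erythroid differentiation.

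RefSeq promoter sequences (build GRCm38.p6) were matched for 6 of the 9 genes, Gata2, Tal1, Erg, Meis1, Myb and Cebpa, as 10 promoters of 250 bases before and 50 bases after a transcription start. Shown here are both Tal1 promoters, since among these 6 genes only the Tal1 window held a peak scoring at least 100, and those of Meis1 and Myb, whose windows held no peak. The 250 bases before each start are printed on the strand of the gene, 5′ to 3′. Capitals mark matches on either strand to 6 motifs. The RUNX core was searched as TGTGGT. The GATA motif was searched as AGATAA and, with another letter at its start, as TGATAA. The E-box was searched in the form CAGCTG, which reads the same on both strands. The TCF/LEF core was searched as CTTTGA, and the ETS motif was searched as CCGGAA. These GRCm38.p6 positions cannot be set against the mm9 positions of the peaks, so whether a peak covers a promoter was not determined.
Tal1, chr4:115056176-115056425, plus strand: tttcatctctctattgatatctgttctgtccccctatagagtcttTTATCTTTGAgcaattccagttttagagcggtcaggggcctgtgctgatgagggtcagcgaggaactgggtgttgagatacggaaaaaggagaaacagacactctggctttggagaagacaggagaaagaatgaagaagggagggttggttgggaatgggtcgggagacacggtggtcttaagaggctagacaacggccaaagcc
Tal1, chr4:115057561-115057810, plus strand: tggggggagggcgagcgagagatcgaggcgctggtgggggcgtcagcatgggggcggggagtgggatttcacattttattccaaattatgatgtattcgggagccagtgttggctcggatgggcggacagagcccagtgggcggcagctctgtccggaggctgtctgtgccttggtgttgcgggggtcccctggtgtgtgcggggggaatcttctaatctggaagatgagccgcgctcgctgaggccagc
Meis1, chr11:19018970-19019219, minus strand: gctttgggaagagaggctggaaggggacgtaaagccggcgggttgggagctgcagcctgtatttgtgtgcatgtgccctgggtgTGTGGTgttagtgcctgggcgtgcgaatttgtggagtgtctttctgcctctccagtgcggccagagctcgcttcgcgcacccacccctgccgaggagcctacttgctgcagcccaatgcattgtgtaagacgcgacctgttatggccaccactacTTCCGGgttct
Myb, chr10:21160985-21161234, minus strand: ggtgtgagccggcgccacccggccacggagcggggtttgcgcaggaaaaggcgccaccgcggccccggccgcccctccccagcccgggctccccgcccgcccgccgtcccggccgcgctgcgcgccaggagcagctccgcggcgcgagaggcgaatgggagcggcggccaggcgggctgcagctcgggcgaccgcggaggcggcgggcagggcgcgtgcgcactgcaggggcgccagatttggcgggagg

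The upstream Tal1 promoter held AGATAA on the minus strand with its match beginning at -205, counted from the transcription start, and CTTTGA on the plus strand starting at -201, so that the matches overlap. The other Tal1 promoter and the Myb promoter held none of the 6 motifs. The Meis1 promoter held TGTGGT at -166 on the plus strand and CCGGAA at -11 on the minus strand. Of the other promoters, 1 of the 3 of Erg held AGATAA at -103 on the minus strand, and 1 of the 2 of Gata2 held CAGCTG at 18 bases after the start. The Cebpa promoter held none. Among all 32851 promoters of the table, TGTGGT was present in 16.8%, AGATAA in 11.2%, TGATAA in 9.05%, CAGCTG in 16.3%, CTTTGA in 16.0% and CCGGAA in 14.9%. A match is a run of letters and was not measured as a binding site here.

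The 9 windows covered 1.52 Mb. At the density of their own chromosomes, counted between the first and the last peak of each, they would hold 3.54 peaks, so the 14 found were 3.96 times that number. Each window alone would hold fewer than 1 peak at its chromosome's density (0.121 to 0.893), so any window with a peak exceeds that density and the excess of a single peak carries no weight. The regions around the windows were dense too: 7 of the 9 flanks (1 Mb on either side) exceeded the chromosome's density, and against these flanks the ratio fell from 3.96 to 2.25. The last listed peak of chromosome 15 lay 112 kb above the centre of the Nfe2 window. The upper flank there was still counted as 1 Mb, so its density may be too low. The 6 windows of the stem cell factors (Gata2, Tal1, Lmo2, Erg, Meis1 and Myb) held 7 peaks in 1230 kb, or 5.69 per Mb. The 3 windows of the lineage factors (Spi1, Cebpa and Nfe2) held 7 peaks in 290 kb, or 24.1 per Mb. At the densities of their chromosomes the stem cell windows would hold 2.87 peaks and the lineage windows 0.662. The peaks found were 2.43 and 10.6 times these numbers. These densities and ratios depend on the window lengths, which run from 50 kb at Nfe2 to 400 kb at Erg. Within the classes the windows differed, with Gata2 at 25.0 and Cebpa at 9.09 per Mb. The windows may also take in parts of neighbouring genes, since no mm9 gene annotation was used, and no peak was placed in an exon, an intron or a promoter.

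**Figure D1:**
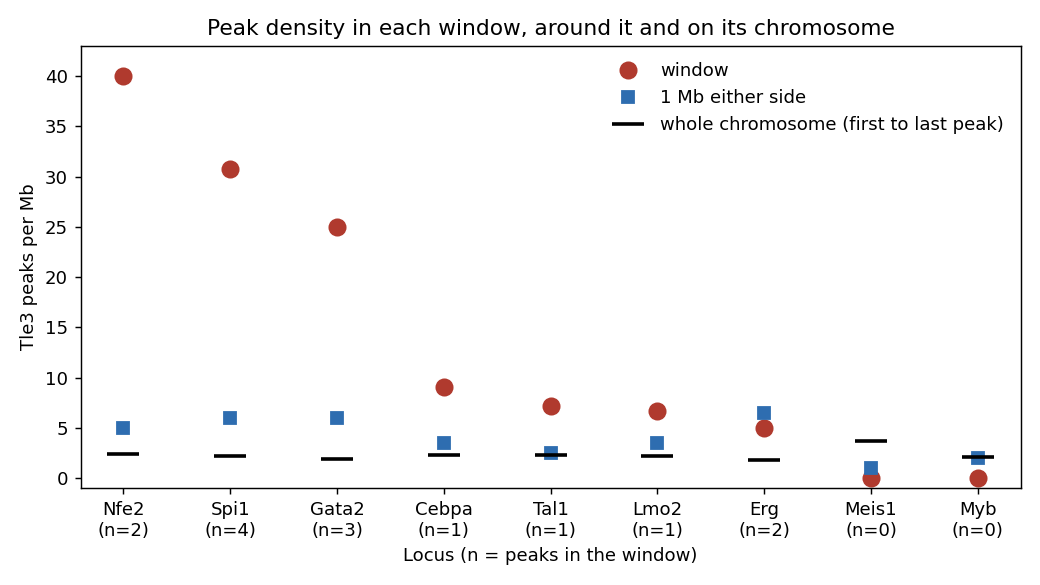
Tle3 peaks per Mb (vertical axis) at each locus (horizontal axis) in its window (circles), in the 1 Mb on either side (squares) and over the chromosome between its first and last peak (bars), from 1 peak list without replicates. Nfe2, Spi1 and Gata2 stand at 40.0, 30.8 and 25.0 peaks per Mb, above their flanks, while Meis1 and Myb are at 0. The upper flank of Nfe2 runs past the last listed peak of its chromosome, so its square may be too low.

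The peak score is the authors' MACS score, which in MACS 1.4 is the log10 of the peak's p-value times 10, with the sign reversed. It starts at 50 in this list, rises with sequencing depth and was used only to rank peaks within the list. The 14 members had scores from 51.12 to 506.15 with a median of 82.33, against a median of 68.82 over all 5136 peaks. Scores of at least 100 were found in 5 of the 14 members, against 24.5% of the list, and 11 of the 14 lay above the list's median. The 5 were at Nfe2 (2), Spi1 (2) and Tal1 (1). Of these 5, 4 lay at lineage factors. The 7 lineage peaks had a median score of 115.1, and the 7 peaks at stem cell factors had a median of 78.57. This contrast rests on Spi1 and Nfe2, which held 4 and 2 of the 7 lineage peaks, while the Cebpa peak scored 74.05. Peaks of 402.71 at Gata2 and 168.64 at Cebpa lay just outside their windows, and the contrast was not computed with other edges. The members were 480 to 1213 bp wide with a median of 802 bp, against 657 bp over the list. Widths above the list's median were found in 12 of the 14, against 49.9%, and 4 were wider than 1000 bp, against 11.1%.

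**Figure D2:**
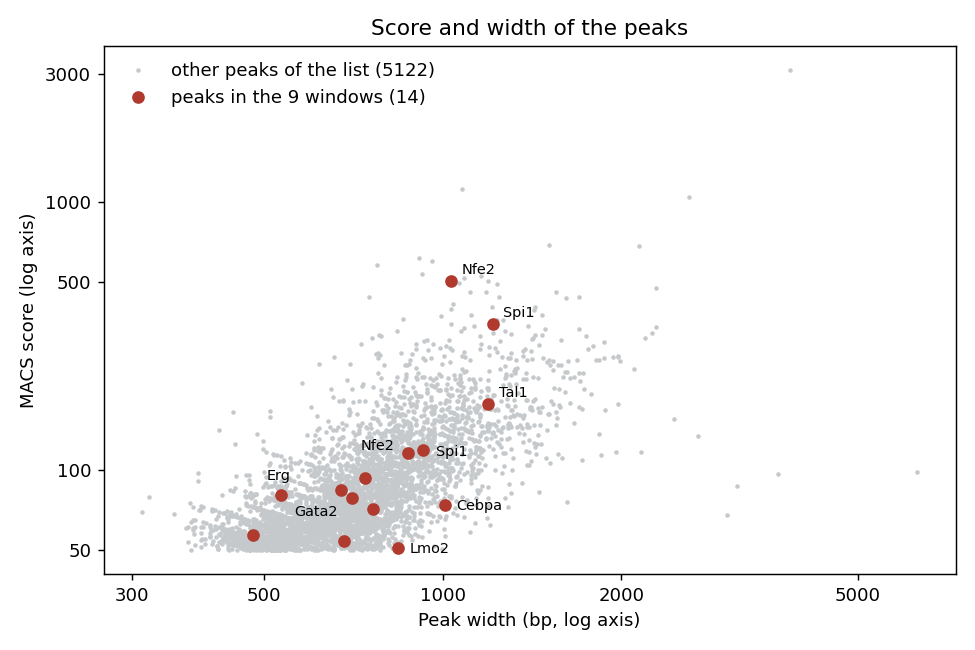
MACS score (vertical log axis) against peak width in bp (horizontal log axis) for the 14 peaks in the 9 windows (large circles, some named) and the other peaks of the list (small dots). The highest Nfe2, Spi1 and Tal1 peaks, at scores of 506.15, 349.5 and 175.4, lie in the upper part of the cloud, and the Lmo2 peak at 51.12 lies on its lower edge.

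Gata2 encodes a zinc finger factor required for the maintenance of blood stem cells. Its window, 88.09 to 88.21 Mb on chromosome 6, held 3 peaks, where the chromosome's density of 1.94 per Mb gives 0.232. They lay at chr6:88115812-88116515 with a score of 78.57, chr6:88179011-88179692 with 54.26 and chr6:88202284-88202763 with 57.21. All 3 scored under 100. The first scored higher than 60.6% of the list and the other two higher than 17.5% and 26.3%. They were spaced widely, with 62.5 kb between the first and the second and 22.6 kb between the second and the third. Of the consecutive 120 kb tiles of chromosome 6, 16.1% held a peak and 1.5% (18 of 1201) held at least 3. The flanks of the window, at 6.0 peaks per Mb, were also denser than the chromosome. A far stronger peak, with a score of 402.71 and a width of 1210 bp, lay just outside the window at chr6:88066420-88067629, its midpoint 23.0 kb below the lower edge. In the RefSeq gene order the nearest protein-coding genes are Rab7 and Rpn1 on the low side of Gata2 and Dnajb8 and Eefsec on the high side.

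Tal1 encodes a basic helix-loop-helix factor that binds E-boxes together with E proteins. Its window, 114.66 to 114.80 Mb on chromosome 4, held 1 peak where 0.323 would be found at the chromosome's 2.31 per Mb. This peak, chr4:114728937-114730128, scored 175.4, higher than 93.9% of the list, and was 1192 bp wide, wider than 95.2%. It ranked 22 among the 351 peaks of chromosome 4. Peaks were found in 20.9% of consecutive 140 kb tiles of chromosome 4, peaks scoring at least 100 in 5.71%, and a peak as high as 175.4 in 1.84% (20 of 1085). The last share largely restates the rank, since the tiles include the window's own peak. A peak at chr4:114659180-114659933 with a score of 87.03 lay just outside, its midpoint 0.444 kb below the window. On the other side no peak followed for 680.0 kb. The genes next to Tal1 in the table are Cmpk1 and Stil on the low side, and Pdzk1ip1 and Cyp4x1 on the high side.

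Lmo2 encodes a LIM domain protein that joins Tal1 and GATA factors in a complex without binding DNA itself. Its window, 103.73 to 103.88 Mb on chromosome 2, held 1 peak, chr2:103785636-103786477, with a score of 51.12 and a width of 842 bp. This was the weakest member, close to the lowest score in the list (50), and only 3.52% of peaks scored lower. It was wider than 77.4% of the list. At 2.21 peaks per Mb on chromosome 2 the window would hold 0.331, and 22.0% of the consecutive 150 kb tiles there held at least 1 peak, the share against which this single peak is to be read. The nearest peaks on either side were 147847 and 643916 bp away. Nat10, Caprin1, 4931422A03Rik and Fbxo3 flank Lmo2 in the table.

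Erg encodes an ETS family factor needed by adult blood stem cells. Its window, 95.30 to 95.70 Mb on chromosome 16, was the longest of the 9 and held 2 peaks, against 0.720 at the chromosome's 1.80 per Mb. They lay at chr16:95656109-95656643 with a score of 80.53 and at chr16:95686049-95686722 with 84.13, higher than 62.9% and 65.8% of the list. Both were in the upper part of the window and 29.4 kb apart, and no peak was listed for 735080 bp before them. Of the 400 kb tiles of chromosome 16, 33.9% held a peak and 16.5% (39 of 236) held at least 2. Erg was the only locus with peaks whose window, at 5 per Mb, was less dense than its flanks, at 6.5 per Mb. The nearest listed peak below the window, chr16:94919727-94921028, had a score of 321.71 and lay 380.0 kb from its edge. The table places Kcnj6 and Kcnj15 on the low side of Erg, and Ets2 and Psmg1 on the high side.

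Meis1 encodes a homeodomain partner of Hox and Pbx proteins. Its window, 18.73 to 18.97 Mb on chromosome 11, held 0 peaks although chromosome 11 was the densest of the 20 chromosomes in the list and 0.893 peaks would be found at its 3.72 per Mb, the highest number among the 9 windows. Peaks were present in 40.7% of the 240 kb tiles of that chromosome, so an empty tile of this length was the more common case there. The window lay inside an interval without peaks of 2760083 bp, between chr11:17059066-17059811 (score 114.02) and chr11:19819895-19820719 (score 124.77). Of the 438 intervals between neighbouring peaks on the chromosome, 6 were at least as long, this interval included, and the median was 87.8 kb. Long intervals cover more of the chromosome than their share of this count, and their share by length was not computed. Etaa1 and C1d on the low side and Spred2 and Actr2 on the high side are the neighbours of Meis1 in the table.

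Myb encodes the factor c-Myb, which sustains proliferation of progenitors. Its window, 20.75 to 20.93 Mb on chromosome 10, held 0 peaks, against 0.375 at the chromosome's 2.08 per Mb, and 21.2% of its 180 kb tiles held a peak. The nearest peak, chr10:20671977-20672692 with a score of 80.17, had its midpoint 77.7 kb below the window. On the other side the next peak was chr10:28313481-28314068 with a score of 115.19, and the interval without peaks between these neighbours was 7640788 bp long. Of the 260 intervals on chromosome 10, 2 were at least as long, this interval included, and the longest was 8.67 Mb. As at Meis1, the count understates how much of the chromosome such intervals cover. The running numbers of the peaks on either side of the Myb interval, and of the interval at Meis1, are consecutive in the list. An empty window shows only that no peak was listed there, in a list whose scores start at 50. With the depth and the filters unknown, it does not show that Tle3 was absent. Pde7b and Ahi1 lie on the low side of Myb in the table, and Hbs1l and Aldh8a1 on the high side.

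**Figure D3:**
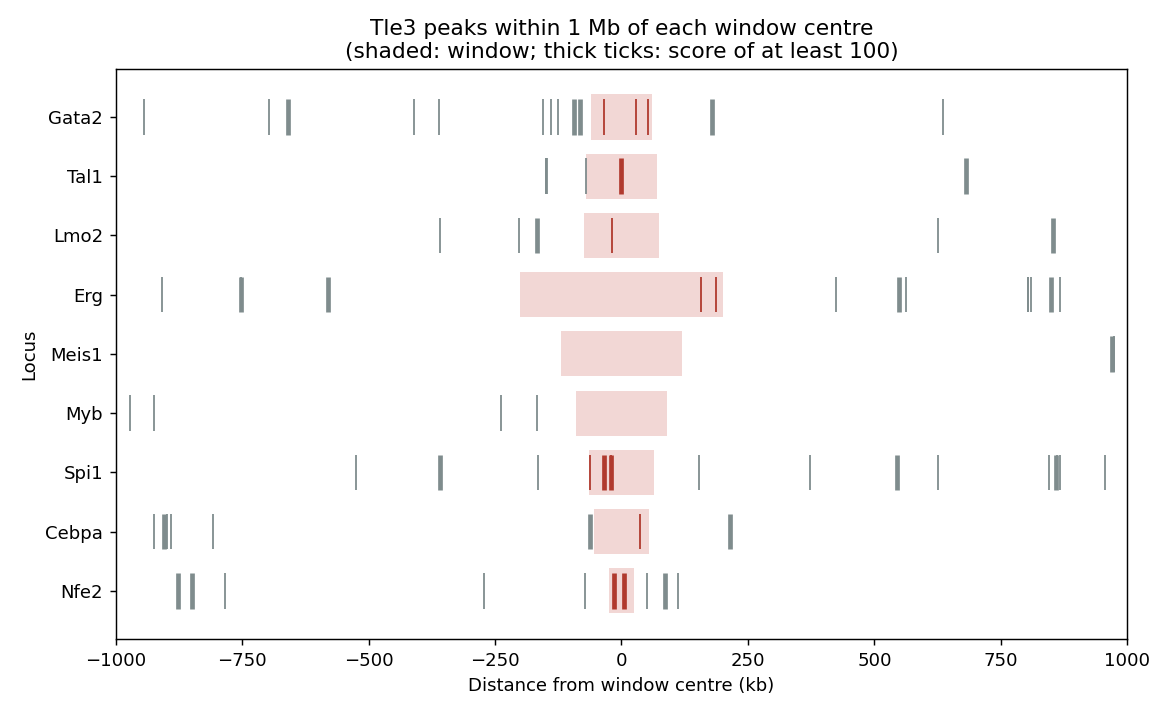
Tle3 peaks (ticks) by distance in kb from the centre of each window (horizontal axis), up to 1 Mb either way, with 1 row per locus. Shading marks the window, red ticks its peaks, grey ticks peaks outside it and thick ticks scores of at least 100. The Myb row has no tick to the right of its window, and the nearest tick of Meis1 is 850.0 kb above its window's edge.

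Spi1 encodes PU.1, an ETS family factor that directs myeloid and B cell development. Its window, 90.88 to 91.01 Mb on chromosome 2, held 4 peaks, the most of the 9 loci, where 0.287 would be found at the chromosome's density. As many as 4 were held by 0.729% of the 130 kb tiles of chromosome 2 (10 of 1372). Any peak was held by 20.0% and a peak scoring at least 100 by 6.05%. The flanks of the window, at 6.0 peaks per Mb, were also denser than the chromosome, at 2.21. The strongest peak in the window, chr2:90922668-90923880, scored 349.5 and was 1213 bp wide, the widest of the 14 members. It ranked 1 among the 394 peaks of chromosome 2 and 36 in the whole list. The fourth peak began 651 bp after it, at chr2:90924532-90925293, with a score of 71.18. These were the 2 members with another peak within 10 kb, against 22.2% of the list. Whether the 2 calls are parts of 1 broader region cannot be told from the list. The second peak, chr2:90910118-90911045, scored 118.15 and lay 11.6 kb before the strongest. The first, chr2:90882664-90883402, scored 92.62 and had its midpoint 3.03 kb inside the lower edge of the window, the closest of any member to an edge. All 4 lay in the lower part of the window, and no peak was listed in the remaining 85.1 kb after the midpoint of the fourth. Psmc3 and Slc39a13 lie on the low side of Spi1 in the table, and Mybpc3 and Madd on the high side.

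Cebpa encodes a leucine zipper factor that drives granulocytic differentiation. Its window, 35.85 to 35.96 Mb on chromosome 7, held 1 peak, chr7:35941310-35942318, with a score of 74.05, higher than 56.5% of the list, and a width of 1009 bp. The chromosome's 2.30 peaks per Mb gives 0.253 for the window, and 16.0% of its 110 kb tiles held at least 1 peak. A stronger and wider peak lay just outside, at chr7:35841032-35842746, with a score of 168.64 and a width of 1715 bp, its midpoint 8.11 kb below the window. The member was 98.6 kb from this peak and 177.0 kb from the next on the other side. Cebpg and Gm45095 are the neighbours of Cebpa on the low side in the table, and Slc7a10 and Lrp3 on the high side.

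Nfe2 encodes the p45 subunit of NF-E2, a regulator of megakaryocyte and erythroid genes. Its window, 103.06 to 103.11 Mb on chromosome 15, was the shortest and held 2 peaks, against 0.121 at the chromosome's 2.43 per Mb. The stronger, chr15:103088470-103089501, scored 506.15 and was 1032 bp wide. It was the highest scoring of the 14 members, ranked 2 among the 243 peaks of chromosome 15 and 12 among all 5136. The other, chr15:103069789-103070662, scored 115.12, higher than 81.7% of the list, and lay 17.8 kb before it. Nfe2 was the only window with more than 1 peak in which each scored at least 100. Of the 50 kb tiles of chromosome 15, 9.60% held a peak, 3.05% held a peak scoring at least 100 and 2.05% (41 of 2000) held at least 2 peaks. A score of 506.15 or more was held by 2 of these 2000 tiles (0.100%). This share restates the rank of 2, since the tiles include the window's own peaks. The nearest peak outside the window scored 98.15 and lay 25.8 kb above its edge. The flanks of the window, at 5.0 peaks per Mb, were also denser than the chromosome. Cbx5 and Hnrnpa1 lie on the low side of Nfe2 in the table, and Copz1 and Gpr84 on the high side. The stronger peak was not assigned to Nfe2 rather than to a neighbour.

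**Figure D4:**
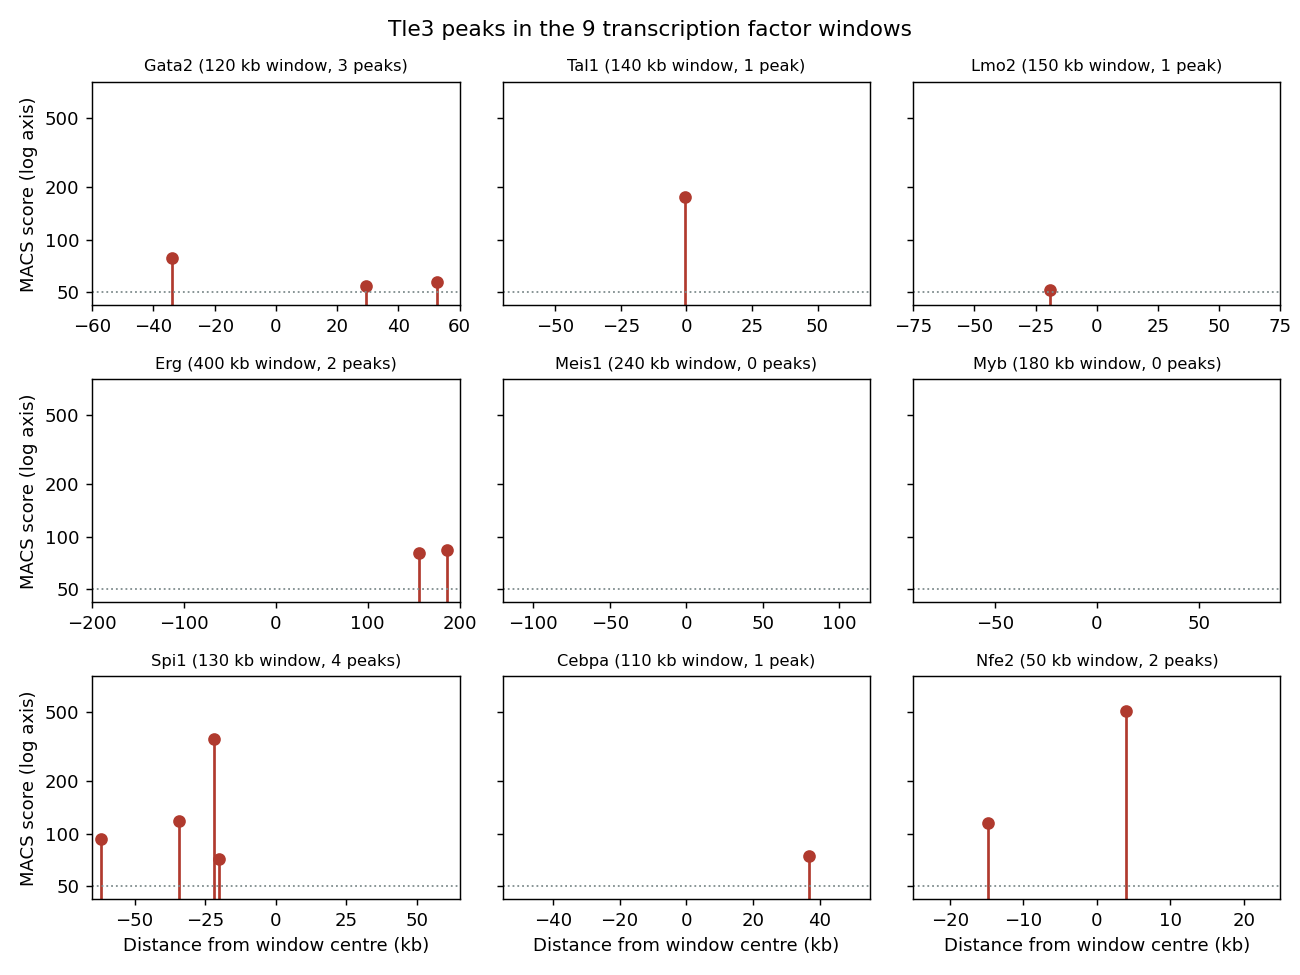
Score of each Tle3 peak (vertical log axis) by distance in kb from the centre of its window (horizontal axis), with 1 panel per locus and the dotted line at the list's minimum score of 50. Spi1 and Nfe2 hold the highest scores, 349.5 and 506.15, the Tal1 peak lies near the middle of its window, and the panels of Meis1 and Myb are empty.

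Ordered by peaks per Mb of window, Nfe2 came first with 40.0, then Spi1 with 30.8, Gata2 with 25.0, Cebpa with 9.09, Tal1 with 7.14, Lmo2 with 6.67 and Erg with 5. Cebpa, Tal1 and Lmo2 each held 1 peak, so their order reflects only the lengths of their windows. Ordered by highest score instead, Nfe2 (506.15) and Spi1 (349.5) again came first, followed by Tal1 (175.4), Erg (84.13), Gata2 (78.57), Cebpa (74.05) and Lmo2 (51.12). Both orders depend on the window edges. With the windows widened by 50 kb on each side, Gata2 held 5 peaks and Spi1 held 4 in a longer window, so Gata2 was the denser. The highest score was then 402.71 at Gata2, above Spi1, and 168.64 at Cebpa, above Erg. The highest scores of the other loci were as before. With 1 list and no replicates, it cannot be said which neighbours in either order differ beyond the spread between samples.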

How the data were processed

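The submitters' processing notes name Bowtie2, MACS 1.4 and mm9. Their parameters and filters were not given in the sources used here. What the authors deposited is 1 list of peaks with positions and the authors' MACS score, without read counts. Per the labels' protocols, libraries were amplified for 18 to 21 PCR cycles. Reads that are PCR copies raise a score if kept.

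Starts were converted to positions counted from 1. The 9 windows, the order of loci and the motifs were chosen with earlier results of these data known. Each locus was described with all its peaks and with the 2 nearest protein-coding genes on either side in the GRCm38.p6 RefSeq table, which matched all 9 symbols and was used for names only. Gaps were measured from edge to edge. Tiles of each window's length were laid end to end from the first to the last peak of its chromosome, the window's own peaks included. The tile counts were checked on simulated lists. Alternatives were another score minimum, other rules for a peak in a window, merging and other densities. Other blood factor genes were not placed, for lack of mm9 coordinates, and protein motifs were not analysed here. Calculations used Python 3.11.15, pandas 2.3.3 and numpy 2.4.6.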

Additional observations from a re-analysis of the deposited data

How the results depend on the processing

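Requiring a score of at least 100 lowered the number of peaks in the windows from 14 to 5 and the number of loci with a peak from 7 to 3 (Nfe2, Spi1 and Tal1), and the ratio to the chromosome's density, with peaks under 100 left out there too, was 5.74. Taking the density from the 2 Mb around each window lowered that ratio from 3.96 to 2.25, and 1 density for all chromosomes gave 4.53. Counting any overlap, or only whole peaks inside, left all 9 counts as they were. Merging peaks within 1 kb gave 13 peaks, joining 2 at Spi1. Widening the windows by 50 kb gave 20 peaks, still at 7 loci and with 0 at Meis1 and Myb, with Gata2 at 5 and Nfe2 at 4 (highest scores 402.71 at Gata2 and 168.64 at Cebpa, against 78.57 and 74.05), and shortening them by 10 kb gave 12. Over the settings that kept all scores, the median score lay between 82.33 and 89.83. Chosen after seeing the data, leaving out Spi1 or Nfe2 gave ratios of 3.08 and 3.51. Shifting the tiles changed the shares of tiles with at least as many peaks to 0.802% for Spi1 and 1.25% for Gata2. Weaker sites missed for lack of depth cannot be counted, since the list has no read totals. No paired analysis was possible because each antibody had only 1 library.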
